A study of Drosophila melanogaster with 8 samples.

Results

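The H1-enriched regions described here lie on the left arm of chromosome 2 (2L) of Drosophila melanogaster, outside the densely covered block between 15 and 18 Mb. They are the regions of the authors' combined list whose midpoint falls between 18 and 22 Mb, the proximal segment, nearer the centromere, or between 1 and 15 Mb, the distal segment. In all, 2167 of the 16190 regions of that list met the rule, or 13.4%, with 409 in the 4 Mb of the proximal segment and 1758 in the 14 Mb of the distal segment. The other 786 regions of 2L were 93 in the first 1 Mb, 542 in the dense block and 151 beyond 22 Mb. The study used ChIP-seq, in which DNA bound by a protein is pulled down with an antibody and sequenced, on Oregon-R embryos, a wild-type strain, aged 14 to 16 h, with 4 immunoprecipitated libraries and 4 input libraries. Coordinates are those of FlyBase r5. The members were chosen by position alone, and no gene was assigned to a region.

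H1 is the linker histone: it binds the nucleosome where the DNA enters and leaves it and holds adjacent nucleosomes in a more compact fibre. Flies have a single somatic form of it, which takes over in the embryo from a maternal form. In Drosophila, H1 is known to be abundant in compact, silent chromatin and sparse at active promoters. The tandem histone genes, which include those for H1 itself, lie on this same arm, and their position on this build was not used here.

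Each replicate list held 305 to 487 regions in the 2 segments. Replicates 1 to 4 had 382, 305, 390 and 487 regions, a mean of 391 ± 74.6 (SD, n = 4), and covered 3.55%, 2.74%, 3.59% and 4.60% of the 18 Mb, a mean of 3.62% ± 0.76 (SD, n = 4). Replicate 2 was the lowest and replicate 4 the highest in both. The combined list covered 23.7% of the same sequence with 5.54 times as many regions as the mean replicate list. It touched 96.6% and 98.2% of the regions of replicates 1 and 4 in these segments, and 79.7% and 81.0% of those of replicates 2 and 3. Over the whole lists the shares were 96.6%, 76.2%, 76.7% and 97.0% for replicates 1 to 4. Replicates 2 and 3 were thus less fully contained in it across the genome, not in these segments alone. Of the regions of replicates 1 to 4 here, 48.7%, 45.6%, 45.1% and 43.1% touched a region of at least 1 other replicate. Read depth is unknown, and sequence without a region is sequence in which no enrichment was called, not sequence shown to lack H1. The labels do not tell whether each replicate was its own collection of embryos, so p-values measure only the spread between these samples, part of which may be technical.

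Regions on these segments were mostly short. The median member spanned 1633 bp, with quartiles of 1194 and 2282 bp, against 1568 bp over the whole combined list. The narrowest was 1001 bp, the lower limit of the list, and 680 members (31.4%) were narrower than 1301 bp, the shortest region in any replicate list. In the replicate lists the median width was 1531, 1494, 1519 and 1564 bp for replicates 1 to 4, so the replicates differed little in width although they differed in number. Members of 5000 bp or more numbered 61, or 2.81%, where the whole list had 2.25%. The 5 widest were 2L 13751912-13761976 (10065 bp), 2L 9821258-9830364 (9107 bp), 2L 18206287-18215027 (8741 bp), 2L 3980897-3989566 (8670 bp) and 2L 21914383-21923028 (8646 bp). Of these, the first and the 8741 bp region were touched by all 4 replicate lists. The 9107 bp region was touched by replicates 1, 3 and 4, the 8670 bp region by replicates 1 and 4, and the 8646 bp region by replicate 1 alone.

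Spacing was far from regular. Between neighbouring members the median gap was 1883 bp and the mean 6330 bp, so most gaps were short and a few were very long. Gaps under 1 kb made up 33.9% of the 2165 gaps. At the other end, 179 gaps of at least 20 kb (8.27%) held 40.6% of the 18 Mb, and 35 gaps of at least 50 kb held 15.6% of it. The standard deviation of the gaps was 2.06 times their mean. In the replicate lists, whose regions are fewer and further apart, that ratio was 1.62, 1.72, 1.60 and 1.65 for replicates 1 to 4. Short gaps followed short gaps: Spearman's rho between a gap and the next was 0.25 over 2163 pairs in the combined list and 0.13, 0.15, 0.21 and 0.22 in replicates 1 to 4. Gaps of 1 list share a library and its depth, so these correlations are descriptions and carry no p. The proximal segment was the sparser, with a median gap of 2964 bp against 1737 bp in the distal segment. Members with at least 20 kb free of regions on both sides numbered 29, of which 7 were proximal.

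**Figure D1:**
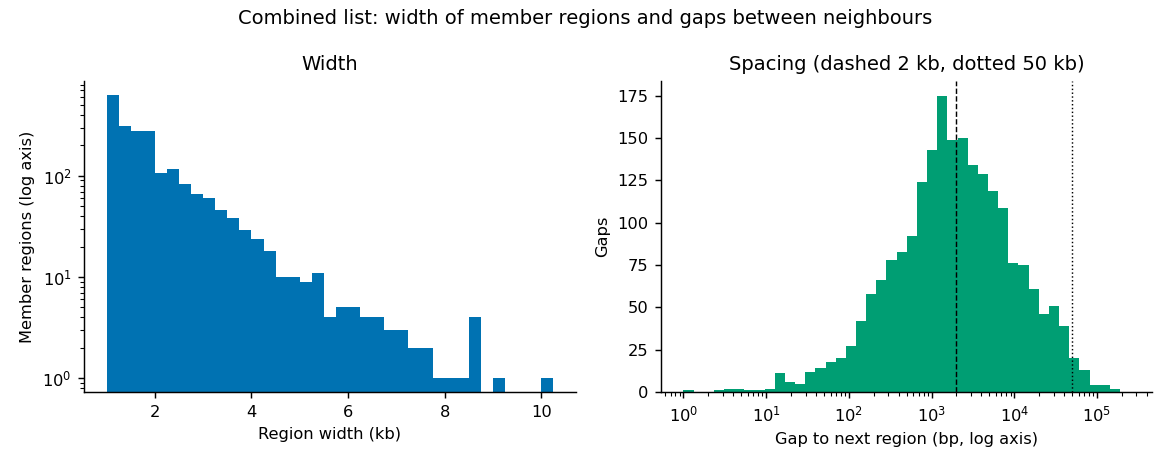
Left, the number of member regions of the combined list (log axis) by width in kb; right, the number of gaps between neighbouring members by length in bp (log axis), with a dashed line at 2 kb and a dotted line at 50 kb. Widths pile up at the lower limit of 1001 bp and thin out to 10065 bp, and gaps spread from 1 bp to 153465 bp around a median of 1883 bp.

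Chains of closely spaced regions formed domains. A domain was taken as at least 5 members with every gap between them at most 2000 bp. There were 98, which held 664 members (30.6%), spanned 10.8% of the sequence and contained 35.8% of the bases that members cover. The median domain had 6 regions, spanned 17.6 kb and was covered at 79.0%. Domains were less frequent in the proximal segment, at 3 per Mb, than in the distal segment, at 6.14 per Mb. Members inside domains had a median width of 1870 bp, against 1530 bp for the others. These values depend on the limits: with gaps of at most 1000 bp there were 41 domains with 10.9% of the members, and with gaps of at most 5000 bp 138 domains with 64.5%. Among regions at or above the median score there were 0 domains.

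Replicate regions were also denser in the domains than elsewhere, although most of the bases they cover lay outside. The domains held 41.5%, 36.6%, 37.7% and 40.7% of the bases covered by replicates 1 to 4. Inside them replicates 1 to 4 were covered at 13.7%, 9.32%, 12.6% and 17.4%, and in the rest of the segments at 2.33%, 1.94%, 2.51% and 3.05%, so the lowest value inside exceeded the highest outside. The ratio was 5.35 ± 0.52 (SD, n = 4). The domains were drawn from the combined list, which comes from the same set of replicates, so no test was made. Of the 98 domains, 38 held regions of all 4 replicates, 38 of 3, 13 of 2, 8 of 1, and 1 held none, at 2L 10043229-10052214.

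The domain with the most regions, 17, spanned 60.3 kb at 2L 11625048-11685328 and was covered at 84.7% in the combined list. Replicates 1 to 4 covered 12.7%, 15.9%, 19.6% and 27.5% of it, with 4, 7, 7 and 9 regions. Next came 2 domains of 14 regions. The one at 2L 4730619-4779301 was covered at 89.1% in the combined list and at 30.0%, 13.4%, 23.3% and 25.9% in replicates 1 to 4, whereas the one at 2L 2497380-2543684 was covered at 77.1% and at 2.93%, 10.4%, 14.1% and 25.6%. Replicate 1 was therefore the highest of the 4 in one and the lowest in the other. The domain at 2L 14745364-14782836 had 13 regions and was covered at 83.0% in the combined list, and replicates 1 to 4 covered 19.9%, 15.7%, 12.2% and 31.8% of it. That at 2L 4701219-4728210 had 12 regions. It ended 2408 bp before the domain at 4730619, just over the limit, and replicates 1 to 4 covered 5.21%, 7.69%, 20.4% and 5.01% of it.

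Counted in windows of 200 kb, covered share ranged from 1.20% to 64.1% in the combined list. Over the 90 windows the median was 21.7%, with 8.45% at the 10th percentile and 41.8% at the 90th, a ratio of 4.95. The most covered window was 2L 11600001-11800000, at 64.1% in the combined list with 48 regions. Replicates 1 to 4 covered it at 11.9%, 9.01%, 11.5% and 17.7%. Second was 2L 4600001-4800000, at 62.4%, with 15.6%, 11.4%, 11.5% and 13.4% in replicates 1 to 4. The third, 2L 14800001-15000000, bordered the dense block and was covered at 55.6%, with 8.34%, 8.57%, 11.1% and 13.3% in the replicates. The fourth, 2L 12800001-13000000, was covered at 52.5%, with 6.13%, 5.51%, 7.80% and 14.6%. The fifth, the 200 kb that follow 18 Mb, bordered the block on its other side and was covered at 50.0%, with 10.2%, 7.05%, 10.2% and 9.77%. In each of these 5 windows all 4 replicates lay above their own mean over the segments. The windows were ranked in the combined list, which comes from the same set of replicates. This is therefore a description, not separate support.

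The emptiest window of this size was 2L 10200001-10400000, at 1.20% in the combined list with 2 regions. Replicates 1, 2 and 3 had no covered base in it, and replicate 4 covered 0.73%. In 2L 14400001-14600000, at 3.95%, no replicate list had a covered base. Its neighbour on the scale, 2L 10400001-10600000, was covered at 5.83%, and there too only replicate 4 had covered bases, at 0.69%. The window 2L 20800001-21000000 was covered at 6.10%, with 0.75% in replicate 2, 1.52% in replicate 3 and none in replicates 1 and 4. In the fifth, 2L 2800001-3000000, at 7.31%, replicates 1 to 4 covered 2.15%, 0.66%, 0.73% and 0.65%. In each replicate the 5 emptiest windows all lay below the 5 densest, which follows largely from the choice of both sets in the combined list.

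**Figure D2:**
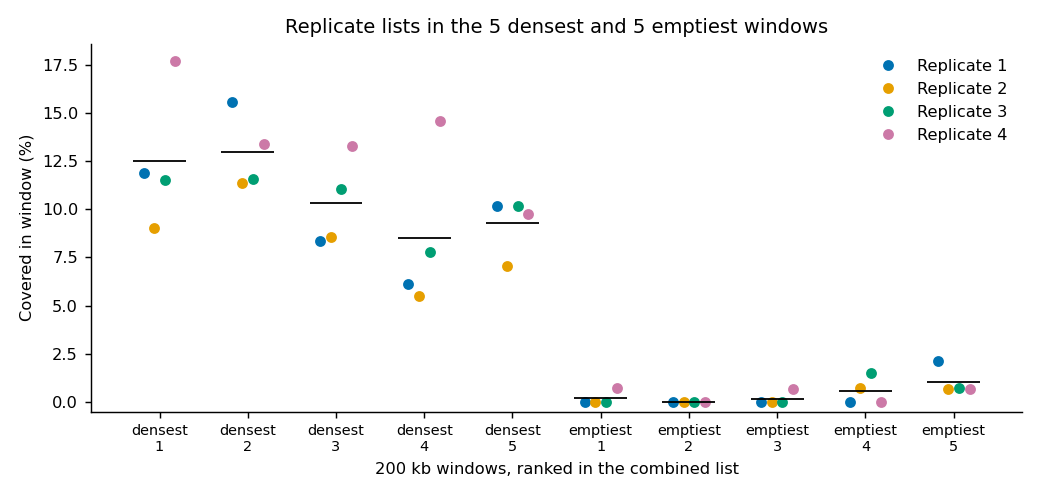
Percent of bases covered (vertical axis) in the 5 densest and the 5 emptiest 200 kb windows as ranked in the combined list (horizontal axis); each point is 1 replicate list and the line is the mean of 4. Densest windows lie between 5.51% and 17.7%, and emptiest windows between 0 and 2.15%.

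Finer windows spread the values further. At 100 kb, 19 of 180 windows were covered at 50% or more in the combined list, 2 of them proximal, and 42 at under 10%. The most covered were 2L 11600001-11700000 at 74.8%, 2L 4700001-4800000 at 71.6%, 2L 5600001-5700000 at 64.2%, the 100 kb that follow 18 Mb at 63.2% and 2L 18200001-18300000 at 61.8%. Replicate means there were 15.9% ± 6.13, 14.9% ± 2.98, 12.8% ± 5.96, 11.2% ± 3.73 and 11.5% ± 6.43 (SD, n = 4). All 19 windows had covered bases in all 4 replicates, as did 85 of the 180 windows. The 19 were picked in the combined list, so this is not separate support. Windows 2L 5000001-5100000 and 2L 10200001-10300000 had no covered base in any of the 5 lists. They were followed by 2L 7500001-7600000 at 1.38%, where replicate 3 covered 1.43%, by 2L 10300001-10400000 at 2.41%, where replicate 4 covered 1.46%, and by 2L 14400001-14500000 at 3.19%, where no replicate had a covered base.

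At 50 kb the peak was 2L 14750001-14800000, covered at 81.0% in the combined list and at 13.3%, 15.1%, 16.0% and 24.2% in replicates 1 to 4. It was followed by 2L 4700001-4750000 at 79.0%, 2L 11650001-11700000 at 75.1%, 2L 2500001-2550000 at 74.8% and 2L 11600001-11650000 at 74.4%. Their replicate means were 15.3% ± 4.76, 16.0% ± 6.71, 12.5% ± 9.09 and 15.8% ± 7.01 (SD, n = 4). The window at 2500001 had the widest spread, with 2.71% in replicate 1 and 24.5% in replicate 4. Of the 360 windows, 20 had no covered base in the combined list, the first 5 along the arm being 2L 1400001-1450000, 1650001-1700000, 5000001-5050000, 5050001-5100000 and 6050001-6100000. None of these 5 was covered in any replicate, as was so for 16 of the 20, while 4 had covered bases in 1 replicate. In the replicates, 64 windows had no covered base in any list.

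**Figure D3:**
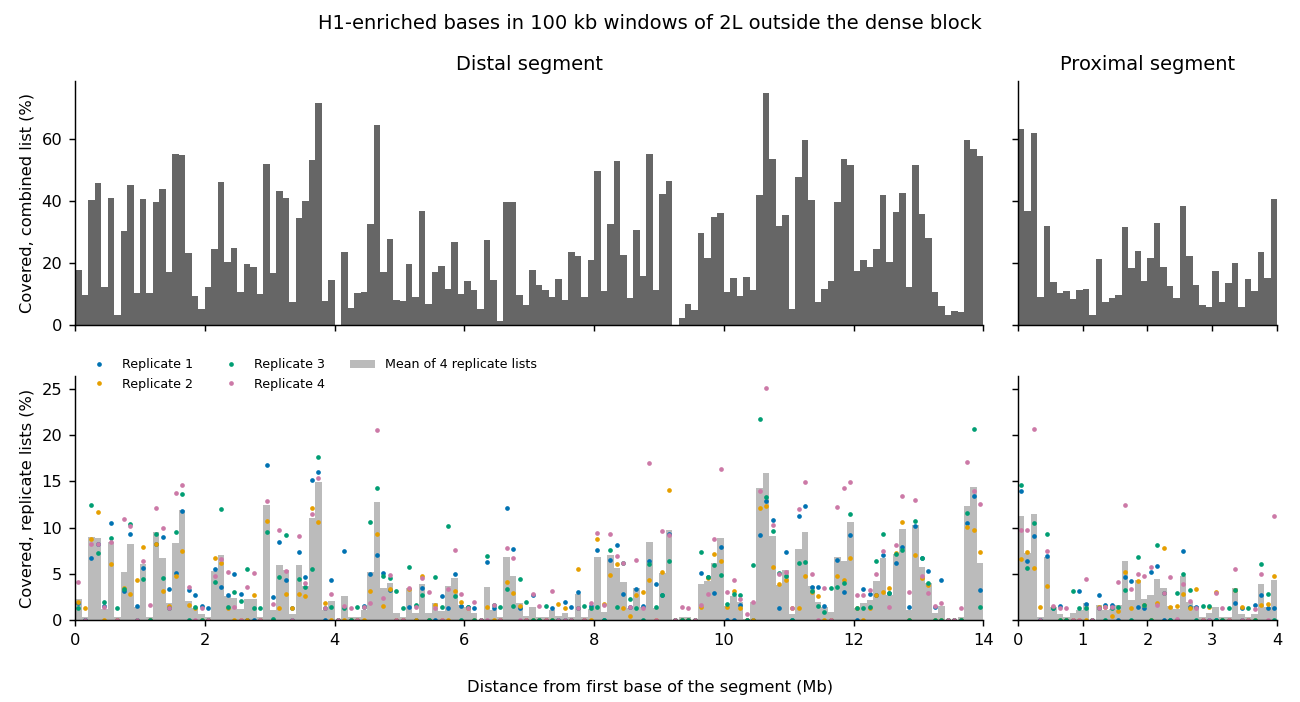
Percent of bases covered in 100 kb windows (vertical axes) along the distal and the proximal segment, by distance in Mb from the first base of each; above, the combined list, and below, the mean of the 4 replicate lists (bars) with each replicate as a point. Groups of tall windows lie between low ones along the distal segment, with 74.8% at the highest and 2 windows at 0. The proximal segment starts high, at 63.2%.

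Within the 2 segments, from which the dense block was left out by rule, dense stretches reached at most 300 kb. Adjacent 50 kb windows that each reached the upper quartile of the combined list, 36.6%, formed 42 runs with a median of 100 kb. The longest was 300 kb at 2L 14700001-15000000, covered at 56.9%, and at 9.07%, 9.08%, 11.2% and 14.5% in replicates 1 to 4. It ended at the 15 Mb cut, beyond which the first 200 kb of the block were covered at 42.2% in the combined list. A run of 100 kb likewise began at the 18 Mb cut, with 69.9% in the 200 kb just outside. The lengths of these 2 runs are thus limited by the rule. Runs of 250 kb lay at 2L 11550001-11800000, 2L 12100001-12350000 and 2L 12750001-13000000, covered at 62.8%, 54.8% and 53.8% in the combined list. Windows at or below the lower quartile, 8.82%, formed 57 runs, with a median of 50 kb. The longest sparse run was 250 kb, 2L 10200001-10450000, covered at 0.96%. After it came 200 kb at 2L 14350001-14550000, covered at 1.60% and with no covered base in any replicate.

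The likeness of 2 windows faded over 50 to 150 kb. Between replicates, the covered share of a 50 kb window in one list and of the same window in another correlated with a mean Pearson's r of 0.58 ± 0.03 (SD over 6 pairs, each pair pooled in both directions). For windows 50 kb apart the mean r was 0.30 ± 0.02, at 100 kb it was 0.11 ± 0.02, and at 150 kb it was 0.04 ± 0.02. From 200 to 2000 kb it stayed between -0.11 and 0.10. Within the combined list r was 0.49 at 50 kb, 0.13 at 100 kb and 0.05 at 150 kb. Without pooling of directions, Pearson's r for the same windows in 2 replicates was higher. Over the 6 pairs it ran from 0.59 to 0.69 at 50 kb (n = 360 windows), where the pooled r ran from 0.56 to 0.64. It ran from 0.69 to 0.77 at 100 kb (n = 180) and from 0.74 to 0.83 at 200 kb (n = 90). Spearman's rho ran from 0.52 to 0.61, from 0.64 to 0.73 and from 0.70 to 0.83 at the same sizes. Windows are not independent and may share base composition, so these are descriptions without a p.

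**Figure D4:**
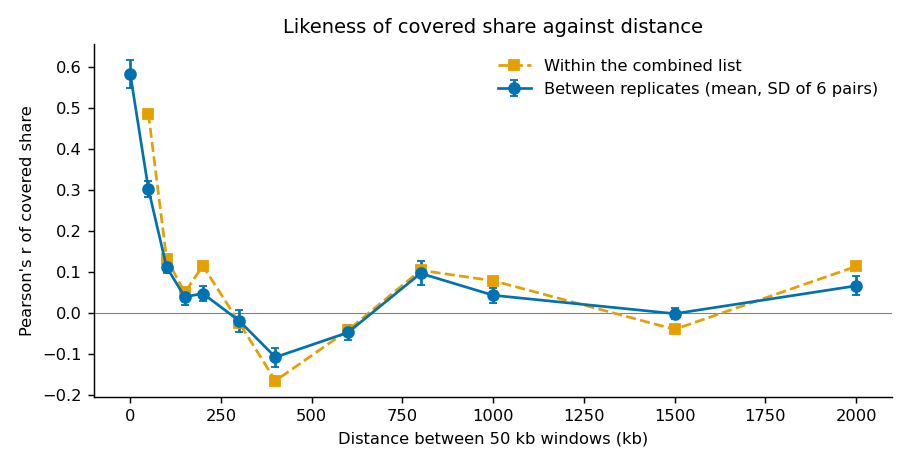
Pearson's r of covered share (vertical axis) against the distance in kb between 50 kb windows (horizontal axis); circles are the mean over 6 pairs of replicates with the SD, and squares are windows within the combined list. With each pair pooled in both directions, the mean between replicates is 0.58 at distance 0, 0.30 at 50 kb and 0.04 at 150 kb.

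Windows that were dense in some replicates were dense in the replicate left aside. For each replicate in turn, the 9 windows of 200 kb most covered in the mean of the other 3 lists were taken. The replicate left out covered them at 8.60%, 7.66%, 8.99% and 11.5% for replicates 1 to 4, and all other windows at 2.98%, 2.19%, 2.99% and 3.83%. Every replicate was thus higher in the windows chosen without it, by a factor of 2.88, 3.50, 3.01 and 3.01, a mean of 3.10 ± 0.27 (SD, n = 4). At the low end, the 9 windows with the smallest mean in the other 3 lists were covered at 1.02%, 0.51%, 1.11% and 1.28% in the replicate set aside. The 4 rounds share lists, so the SD is not that of independent values and no test was made. The rounds chose 11 different windows in all, and 5 of them every time.

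The 10 longest gaps in the combined list were nearly empty in the replicates too. They ran from 88.4 to 153.5 kb and made up 6.67% of the segments. Replicates 1 to 4 had 1, 3, 1 and 1 regions touching them. The gaps were chosen for holding no region of the combined list, which comes from the same set of replicates. In the segments only 13, 62, 74 and 9 regions of replicates 1 to 4 touched no region of that list. Low counts thus follow largely from the choice of the gaps, and they are a description, not separate support. The longest gap, 2L 14418030-14571494 (153465 bp), had none, and neither had those at 2L 4986983-5126066 (139084 bp), 2L 1624607-1741399 (116793 bp), 2L 9147619-9253409 (105791 bp), 2L 6417054-6515692 (98639 bp) and 2L 2150890-2239314 (88425 bp). The gap 2L 12415261-12536963 (121703 bp) was touched by 2 regions of replicate 2, and 2L 7478434-7598620 (120187 bp) by 1 region each of replicates 3 and 4. The gap 2L 10196432-10347956 (151525 bp) was touched by 1 region of replicate 1, and 2L 21415323-21520852 (105530 bp), the 1 proximal gap of the 10, by 1 region of replicate 2. Taking the 4 replicates together and leaving the combined list aside, the longest stretch with no region was 353.7 kb at 2L 14341959-14695703, and 19 such stretches reached 100 kb.

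Some of the empty stretches ended at dense ones. Of the 10 gaps, 3 directly bordered a domain, at 2L 10183208-10196431, 2L 5126067-5143344 and 2L 9253410-9270859, and 5 had a domain within 50 kb. The steepest step between neighbouring 50 kb windows was at such an edge: 2L 9200001-9250000 had no covered base in any of the 5 lists, and 2L 9250001-9300000 was covered at 65.4% in the combined list and at 13.1%, 9.91%, 15.2% and 18.6% in replicates 1 to 4. The next was at 2L 4750001-4800000, covered at 64.1% and at 13.6%, 11.9%, 15.4% and 17.1% in replicates 1 to 4. Its neighbour 2L 4800001-4850000 was covered at 2.15% in the combined list and had no covered base in any replicate. Not all long gaps had such edges: the longest had flanks of 50 kb covered at 6.38% and 9.42%, and its nearest domain was 173.9 kb away. How often gaps of any length border a domain is not given here, so the counts for the 10 gaps are descriptions.

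Single regions seldom recurred in 3 or more lists, a count that cannot be set against the window shares above because the measures differ. Of the 2167 members, 996 (46.0%) were touched by at least 1 replicate list, where the whole combined list had 44.2%, and 1171 by none. Members touched by at least 3 lists numbered 81 (3.74%), against 3.56% over the whole list, and those touched by all 4 numbered 16 (0.74%), against 0.729%. All 3 shares were near those of the whole list. By replicate, 364, 267, 344 and 457 members were touched by replicates 1 to 4. With at least 50% of the region required to be covered in each list, 14 members in place of 81 were touched by at least 3. Base by base, 83.7% of what the replicates covered lay in a single list, 14.7% lay in 2, 1.46% in 3 and 0.16% in all 4.

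Support went with width and, at most widths, with lying in a domain. Members of up to 1200 bp were touched in 21.2% of cases, and those over 4000 bp in 92.7%. Inside domains 61.3% of the members were touched, against 39.2% outside. At widths over 1200 and up to 1600 bp the shares were 47.2% inside and 24.9% outside, at those over 1600 and up to 2400 bp 60.4% and 50.5%, and over 4000 bp 92.5% and 92.9%. Width alone makes a touch more likely and the lists come from the same replicates, so no test was made.

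The 16 members touched by all 4 lists were wide, from 2233 to 10065 bp with a median of 4803 bp, and 11 of them lay in domains. The 10 widest, all over 4 kb, were 2L 13751912-13761976, 2L 18206287-18215027, 2L 11745993-11754313, 2L 2266191-2273804, 2L 11541151-11548293, 2L 10897221-10903749, 2L 18193315-18199360, 2L 14058030-14063315, 2L 13740028-13744346 and 2L 12234223-12238339. The second and the seventh of these lay 6926 bp apart in 1 domain, close beyond the dense block, and the first and the ninth were 7565 bp apart. The other 6 were 2L 20102938-20107048, 2L 12758919-12762624, 2L 1813348-1816853, 2L 1202796-1206187, 2L 3233829-3236295 and 2L 1285493-1287725. Proximal members among the 16 numbered 3. The share touched by all 4 lists was 0.73% of the proximal and 0.74% of the distal members. As for the 11 in domains, 30.6% of all members lay in domains, and 67 of the 123 members over 4000 bp did. Neither count is therefore read as a trait of the 16 beyond their width.

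The median of the authors' score was alike for members touched by fewer than 3 lists and higher for those touched by 3 or 4. The median score was 0.39 for the 1171 members touched by no list, 0.39 for the 657 touched by 1, 0.39 for the 258 touched by 2, 0.41 for the 65 touched by 3 and 0.43 for the 16 touched by all 4. Of these 16, 9 lay above the upper quartile of all members, 0.42. So did 26 of the 65, 75 of the 258, 123 of the 657 and 309 of the 1171. The score and the lists come from the same libraries, so no test was made. The median score of all members was 0.39, against 0.40 over the whole list, and Spearman's rho between width and score was -0.07 over the 2167 members. The 5 highest scores were 3.27 at 2L 8452479-8453479, 2.79 at 2L 21022009-21023009, 2.69 at 2L 5174622-5175675, 2.27 at 2L 20198110-20199194 and 1.74 at 2L 5177622-5178622. These 5 spanned 1001 to 1085 bp and were touched by no replicate list. Of the 11 members with a score of at least 1, none was touched by any replicate list, and their median width was 1053 bp. Of all 2167 members 46.0% were touched, but of those up to 1200 bp wide only 21.2%. The lack of touches is therefore not read as a result about high scores.

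The arm was not covered evenly from end to end. Between 1 and 5 Mb the 4 windows of 1 Mb were covered at 25.6%, 29.9%, 23.9% and 33.0% in the combined list, and between 5 and 9 Mb at 20.0%, 16.4%, 17.0% and 15.0%. The window 2L 8000001-9000000 was the lowest of the 18 in the combined list and in the replicate mean, with 1.22%, 0.86%, 0.58% and 1.08% in replicates 1 to 4. The highest in the combined list was 2L 12000001-13000000 at 33.0%, with 5.12%, 2.90%, 4.06% and 7.81%. The replicates differed widely there, and the highest replicate mean was instead at 2L 11000001-12000000, at 5.70% ± 1.53 (SD, n = 4). In the proximal segment the first window, at 25.8%, was followed by 15.0%, 18.03% and 16.9%.

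The proximal segment was less covered than the distal one in every replicate. Replicates 1 to 4 covered 2.35%, 2.03%, 2.59% and 3.51% of the proximal segment, against 3.89%, 2.94%, 3.87% and 4.91% of the distal segment. The groups of values overlap, but within each list the proximal value was the lower, with a log2 ratio of -0.58 ± 0.10 (SD, n = 4), negative in 4 of 4 replicates. The exact permutation test, two-sided and by sign flips of the 4 values, gave p = 0.13 and an adjusted p of 0.13 over 4 comparisons, the smallest that 4 replicates allow, so no comparison could pass 0.05. The difference was larger away from the block: without the 1 Mb next to it on either side the log2 ratio was -0.89 ± 0.24 (SD, n = 4), and with the lower-scoring regions of each list removed, below its median score, it was -0.94.

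The dense blocks of 2L and 3R were left out, while 3L and X were kept whole between their limits. The comparisons with 3L and X are thus not of like stretches, and the 2L block was covered at 7.69% ± 1.5 (SD, n = 4). On that footing, the 2L segments were close to the bodies of 3L and 3R. They were covered at 3.62% ± 0.76, against 3.35% ± 0.60 of 3L between 1 and 22 Mb, a log2 ratio of 0.11 ± 0.10 (SD, n = 4), positive in 4 of 4 replicates. The ratio rested in part on replicate 4 and was 0.06 without it. The 3R body, here 2 to 23 Mb and 25 to 26 Mb, was covered at 4.08% ± 0.68, a log2 ratio of -0.18 ± 0.07 (SD, n = 4), negative in 4 of 4, and -0.10 in the combined list. Replicates 1 to 4 covered 3.55%, 2.74%, 3.59% and 4.60% of the 2L segments, against 3.39%, 2.51%, 3.58% and 3.92% of the 3L body, 4.11%, 3.31%, 3.97% and 4.95% of the 3R body and 1.88%, 1.31%, 1.65% and 1.93% of the X body. Only the X values lay wholly below those of the 2L segments. The largest of these differences was with the X, where the stretch between 1 and 20 Mb was covered at 1.69% ± 0.28 and the log2 ratio was 1.09 ± 0.14 (SD, n = 4), positive in 4 of 4. Among regions at or above the median score that ratio was 0.23 ± 0.18 (SD, n = 4). Replicate regions of the X body had a median score of 0.69 ± 0.08, against 0.60 ± 0.06 in the 2L segments (SD, n = 4). Whether regions were called alike on the X and on 2L was not tested. Each of the 3 comparisons had an exact sign-flip permutation p of 0.13, adjusted 0.13. Median region width in the combined list was 1633 bp in the 2L segments, against 1520, 1588 and 1447 bp in the bodies of 3L, 3R and X, a difference that was not tested. Regions of 5000 bp or more made up 2.81% of the regions in the 2L segments, against 2.66%, 2.82% and 0.74% in the bodies of 3L, 3R and X.

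**Figure D5:**
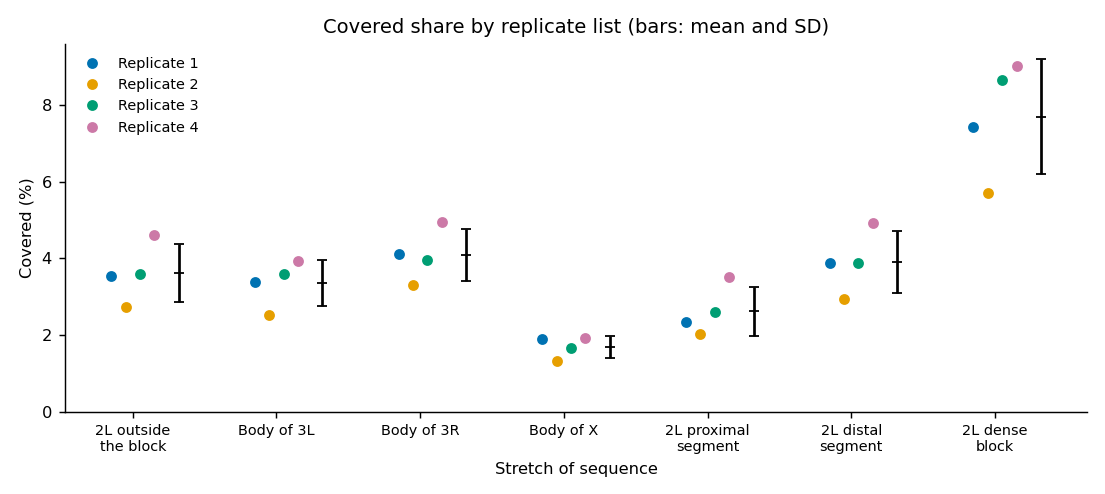
Percent of bases covered (vertical axis) in 2L outside the dense block, the bodies of 3L, 3R and X, the proximal and distal segments of 2L and its dense block (horizontal axis); each point is 1 replicate list, and the bars give the mean and SD of 4. The 2L segments lie at 2.74% to 4.60%, close to 3L and 3R and above X in every replicate.

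The dense block was set apart because it is dense, so its values stand here without a test. The 2L segments had 120.4 regions per Mb in the combined list, against 180.7 in the block. The replicates covered 3.62% ± 0.76 of the segments, against 7.69% ± 1.5 of the block (SD, n = 4). In the combined list the last 200 kb before 15 Mb were covered at 55.6%, against 42.2% in the first 200 kb of the block, and the first 200 kb after 18 Mb at 50.0%, against 69.9% in the last 200 kb of the block. The same last 200 kb before 15 Mb were covered at 10.3% ± 2.33 in the replicates, against 9.27% ± 1.93 in the first 200 kb of the block, and the first 200 kb after 18 Mb at 9.28% ± 1.5, against 13.7% ± 6.72 in the last 200 kb of the block (SD, n = 4). At the outer edges, the first 200 kb of the distal segment were covered at 1.34% ± 0.66, against 2.82% ± 1.59 just before it, and the last 200 kb of the proximal segment at 2.90% ± 2.01, against 4.41% ± 1.47 just after it (SD, n = 4). The members closest to the 4 edges, taken from the start of the arm, were 2L 1020495-1022238, 2L 14983870-14984875, 2L 18000018-18001598 and 2L 21999096-22000295, and the regions just outside were 2L 993294-994369, 2L 15012529-15013637, 2L 17994953-17999648 and 2L 22001770-22003408. The scores just inside were 0.42, 0.59, 0.33 and 0.38, and those just outside 0.46, 0.45, 0.44 and 0.38.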

How the data were processed

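Bowtie 0.12.7 served as the aligner, per the submitters' processing notes. The authors deposited lists of enriched regions on FlyBase r5, per the file headers: 1 list per immunoprecipitated library, 4 in all, and a combined one. Each region has a start, an end and the authors' score. For the region caller, its thresholds and the way replicates were combined, details were not given in the sources used here. Without read counts the depth is unknown and counting intervals cannot be stated. Input libraries were not analysed here.

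The deposited lists entered unchanged. Tools were numpy 2.4.6 and pandas 2.3.3 under Python 3.11.15, with matplotlib 3.10.9 for plots and scipy 1.17.1 for rank correlations. Covered share is covered bases over sequence length, with no correction for assembly gaps or repeats. Touched means at least 1 shared base. Windows of 200, 100 and 50 kb tile each segment from its first base. Covered shares of 2 stretches were compared by the log2 ratio within each replicate, tested by exact sign-flip permutation, two-sided, with Benjamini-Hochberg adjustment over 4 comparisons. The interval arithmetic was tested on simulated lists with known answers.

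The stretches, lists and tests were chosen with earlier results of these data known. Items were named by rule: the 5 most and 5 least covered windows of each size, the 5 domains with the most regions, the 5 widest and 5 highest-scoring members, every member touched by all 4 lists and the 10 longest gaps. Runs, steps and edges were described after their values were seen, as was the single domain without replicate regions. Alternatives were a score filter, equal numbers of regions, merging, other domain gaps, other windows, overlap of 50%, the combined list and leaving out each replicate.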

Additional observations from a re-analysis of the deposited data

Results flagged for a closer look

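Of 60 sets of 4 replicate values with any spread, 8 had 1 replicate far from the other 3, where chance would give about 3. In 4 of the 8 the other 3 replicates were at 0, which meets the criterion whatever the remaining value is, so the chance figure does not apply to them and the number of cases is not a result. Replicate 4 stood high in 2L 11600001-11700000, at 25.1% against 12.3% to 13.4% in the others, and between 19 and 20 Mb, at 3.85% against 1.68% to 1.95%. Replicate 2 stood low in the 200 kb that follow 18 Mb, at 7.05% against 9.77% to 10.2%. Replicate 1 stood high in 2L 2800001-3000000, at 2.15% against 0.65% to 0.73%. In 4 nearly empty windows a lone replicate had any covered base: replicate 4 in 2L 10200001-10400000 (0.73%), 2L 10400001-10600000 (0.69%) and 2L 10300001-10400000 (1.46%), and replicate 3 in 2L 7500001-7600000 (1.43%). The windows 2L 10200001-10400000 and 2L 10300001-10400000 overlap, so these cases are not independent.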

How the results depend on the processing

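Of 62 recomputed values over 16 results, 45 kept their direction or stayed within the limits set and 17 moved; 0 reversed. The 4 ratios between stretches were judged by direction alone, since no p could pass 0.05. Keeping regions at or above the median score gave 172 regions and 1.68% covered per replicate, 835 combined regions, 9.29% covered, a median gap of 8513 bp and 0 domains, with fewer regions by construction. Equal numbers of regions per list gave 2.76% covered. Merging regions under 500 bp apart gave a median width of 1750 bp and a median gap of 2896 bp. Domains numbered 41 with gaps of at most 1000 bp, holding 10.9% of the members, and held 64.5% with gaps of at most 5000 bp. The 90th over the 10th percentile of windows was 7.85 at 100 kb and 16.2 at 50 kb, and the ratio in the replicate left out was 3.95 and 4.49 there. With 50% overlap, 14 members were touched by at least 3 lists. Without 1 replicate, the covered share ran from 3.29% to 3.91%, members touched from 773 to 877, and the log2 ratios from 0.06 to 0.14 for 3L, -0.21 to -0.15 for 3R, 1.03 to 1.15 for X and -0.61 to -0.53 for the proximal segment. The stretch without the 1 Mb beside the block was chosen after seeing the data. No paired analysis was possible because no input values were used that could be paired by number with the immunoprecipitated libraries; the ratios between stretches are themselves paired within each replicate list. Unknown depth limits every statement on empty sequence.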

Other observations

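The scale of the score can be read from the values. After the most frequent score of the combined list, 0.46, was subtracted, 2 to the power of the score was a ratio of 2 whole numbers for 2143 of the 2143 other members, with a denominator of at most 3000 and a relative tolerance of 1e-11. With e or 10 as the base, 3 and 0 of them were. In replicates 1 to 4 the same held for 379 of 379, 299 of 299, 383 of 383 and 483 of 483 other regions of the segments. The score therefore behaves as a log2 ratio with 1 constant per list. The ratios are in lowest terms and relative to the most frequent score, so they cannot be taken as read counts. Depth remains unknown.

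Relative to the most frequent score, the 5 highest-scoring members had ratios of small whole numbers. These were 7 to 1 at 2L 8452479-8453479, 5 to 1 at 2L 21022009-21023009, 14 to 3 at 2L 5174622-5175675, 7 to 2 at 2L 20198110-20199194 and 17 to 7 at 2L 5177622-5178622. The median denominator over the members was 275. None of the 5 was touched by a replicate list, where 21.2% of all members up to 1200 bp wide were. Those at 5174622 and 5177622 lay 1946 bp apart.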
